A study of Mus musculus with 45 samples.

Results

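The NF-kB subunits and inhibitors described here are 10 genes, taken from the 55450 rows of the count table by their symbols: Relb, Rel, Rela, Nfkb1, Nfkb2, Nfkbia, Nfkbie, Nfkbiz, Tnfaip3 and Tnip1. Each symbol matched 1 row, and all 10 genes passed the filter on low counts in every comparison. NF-kB is a family of dimeric transcription factors that relay signals from antigen receptors, Toll-like receptors and the TNF receptor family. In resting cells the dimers are held in the cytoplasm by IkB proteins, and activated IkB kinases mark these for destruction, which frees Rela and Rel in the canonical route, whereas the alternative route frees Relb through processing of the Nfkb2 precursor. Many genes of the family are themselves targets of NF-kB, so that the inhibitors form negative feedback loops, and the pathway is known for its part in lymphocyte activation and in the germinal center (GC) reaction. The list was chosen by measured values: Relb and Nfkbiz had stood out in these data for their difference between genotypes in T follicular helper (TFH) cells against non-TFH cells, and their family was added to them. That difference is therefore given below as a description, with no test.

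RNA was sequenced in 45 samples of cells sorted from draining popliteal lymph nodes of mice in 8 groups, 4 populations from each of 2 genotypes. S1PR4-/- mice carry the germline S1pr4tm1Dgen allele (B6.129P2-S1pr4tm1Dgen/J), backcrossed to C57BL/6 at least 10 times, so that every cell of the animal lacks the receptor, and WT mice were their S1pr4+/+ counterparts; mice of both sexes were 8 to 12 weeks old. All received 20 µL of an IFA emulsion with 50 µg OVA and 5 µg LPS in the footpad, and no group came from naïve mice. TFH cells (TCRβ+ CD4+ PD1+ CXCR5+) and non-TFH cells (TCRβ+ CD4+ PD1- CXCR5-) were sorted on day 6, with 6 samples per genotype, and GC B cells (B220+ GL7+ Fas+, 6 samples per genotype) and non-GC B cells (B220+ GL7- Fas-, 5 WT and 4 S1PR4-/- samples) on day 9. The paper names 6 WT and 6 S1PR4-/- mice for these sorts, but the labels do not tie a sample to a mouse. The p-values therefore measure the spread between these samples.

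The genes lie on 8 chromosomes (GENCODE M21, mm10). Of the subunits, Relb spans chr7:19606217-19629438, Rel chr11:23736847-23770970 and Nfkb1 chr3:135584655-135691547, all on the minus strand, while Rela (chr19:5637483-5648130) and Nfkb2 (chr19:46304320-46312385) are on the plus strand. Of the inhibitors, Nfkbia spans chr12:55489410-55492647, Nfkbiz chr16:55811375-55838899, Tnfaip3 chr10:19000910-19015657 and Tnip1 chr11:54910785-54962917 on the minus strand, and Nfkbie spans chr17:45555703-45563169 on the plus strand. RefSeq promoter windows (GRCm38.p6, 250 bases before to 50 after a start) were at hand for 7 of them, and Relb, Nfkb1 and Nfkbiz had none. The NF-kB consensus motif was searched on both strands as GGGRNNYYCC (R is A or G, Y is C or T, N is any base). Overlapping matches were merged into 1 site. The motif was present in 6 of those 7 genes, and Rela had no match. Among all genes with a window, 9.55% of 27025 held the motif, as did 8.46% of 32851 windows. For each of these genes, sites before a start are shown because the list holds the genes of the factors to which this motif is ascribed; for Nfkb2 they are those of its first window, and for Tnfaip3 the nearer of 2. Each is on the gene's own strand, 5′ to 3′, with the motif in capitals.
Rel, chr11:23771042-23771070, minus strand, 92 to 82 bases before the start: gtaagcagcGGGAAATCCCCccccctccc
Nfkb2, chr19:46304689-46304717, plus strand, 39 to 29 bases before the start: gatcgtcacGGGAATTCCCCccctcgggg
Nfkb2, chr19:46304717-46304744, plus strand, 11 to 2 bases before the start: gggccgaaaGGGGCTTTCCcggctggag
Nfkbia, chr12:55492658-55492685, minus strand, 29 to 20 bases before the start: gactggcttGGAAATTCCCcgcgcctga
Nfkbie, chr17:45555585-45555612, plus strand, 106 to 97 bases before the start: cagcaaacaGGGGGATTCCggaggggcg
Tnfaip3, chr10:19015404-19015431, minus strand, 12 to 3 bases before the start: atttccatcGGAAATCCCCctgttggca
Tnip1, chr11:54962978-54963007, minus strand, 58 to 47 bases before the start: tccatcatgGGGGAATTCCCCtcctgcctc
Tnfaip3 held a second site, 125 to 116 bases before the same start, and Nfkb2 had sites in all 3 of its windows, those of the second lying 236 to 227 bases before and 11 to 20 bases after its start, the latter also 225 to 216 bases before the start of the third. A match describes the letters of the window only and says nothing of binding in these cells.

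A sample held between 26299429 and 45548215 expected counts, and the targeted gene, S1pr4, had 505 to 6305 counts in WT samples against 0 to 40 in S1PR4-/- samples. The labelled populations carried their markers: 12 T cell genes summed to between 7022 and 9681 CPM (counts scaled to the size of each library) in the T cell samples, and 12 B cell genes to between 7971 and 17337 CPM in the B cell samples. The 6 TFH markers summed to 2227 to 3395 CPM in TFH cells against 200 to 465 CPM in non-TFH cells, and the 6 GC B markers to 1043 to 1782 CPM in GC B cells against 122 to 183 CPM in non-GC B cells. Levels of the members below are CPM after TMM scaling over all 45 samples, which allows a gene to be compared between groups.

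Genes can be compared with each other only per length, here as mean CPM per kb of the longest coding transcript. On that scale, Nfkbia, the classical IkB protein that is resynthesized after each round of activation, had the highest mean of the 10 genes in each of the 8 groups, and Rela, the main activating subunit of the canonical route, the next highest. In WT non-GC B cells the means per kb were 236 CPM for Nfkbia and 98.1 CPM for Rela, followed by Nfkbie with 73.7, Nfkb2 with 70.0, Relb with 57.9, Nfkb1 with 34.5, Tnip1 with 23.7, Rel with 18.4, Tnfaip3 with 18.3 and Nfkbiz with 6.76 CPM. The lowest mean per kb was that of Rel in all 4 T cell groups (2.71 to 3.27 CPM) and that of Nfkbiz in all 4 B cell groups (2.62 to 6.76 CPM).

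**Figure D1:**
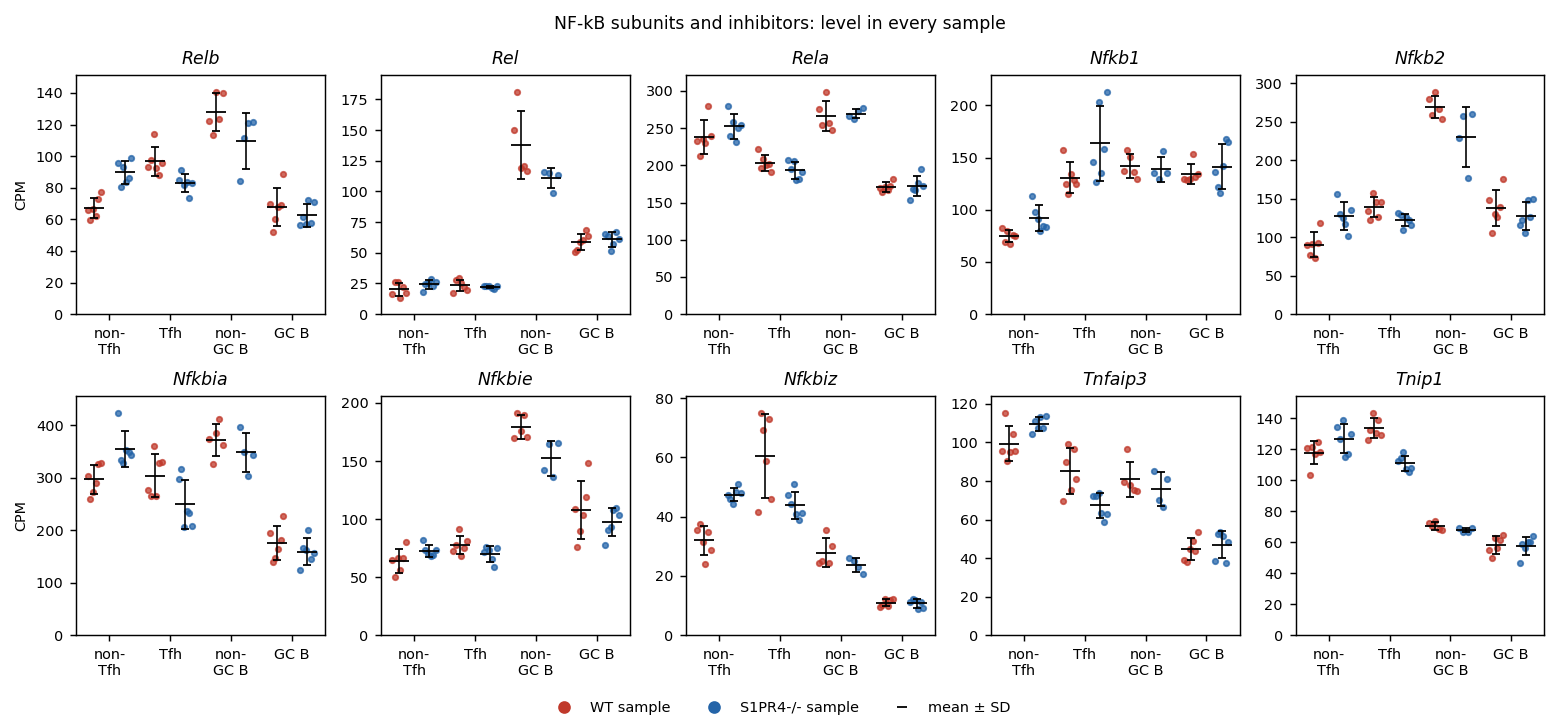
Level of each of the 10 genes in CPM (library-scaled counts, linear axes from 0, a scale of its own for each gene) in every one of the 45 samples, with red points for WT, blue points for S1PR4-/- and black bars for the mean ± SD of each group. The GC B samples lie below the non-GC B samples for most genes, Rel is several times higher in B than in T cells, and the WT and S1PR4-/- points separate most in non-TFH cells for Relb and Nfkbiz.

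The order of the group means differed between genes. Non-GC B cells of both genotypes had the highest means of Relb (128 ± 11.9 CPM in WT, SD, n = 5, and 109.7 ± 17.7 in S1PR4-/-, n = 4), Rel, Rela, Nfkb2 and Nfkbie, and GC B cells of both genotypes the lowest means of Rela, Nfkbia, Nfkbiz, Tnfaip3 and Tnip1. For Relb, every group overlapped its neighbour in that order. For Rel, the order had gaps between WT and S1PR4-/- non-GC B cells, between these and GC B cells, and between GC B cells and all T cells. Nfkbiz was highest in WT TFH cells (60.5 ± 14.2 CPM, n = 6), which overlapped S1PR4-/- non-TFH cells. In its order, gaps lay between S1PR4-/- TFH and WT non-TFH cells and between non-GC B and GC B cells. Tnip1 was higher in each of the 4 T cell groups than in any B cell group, with no overlap between the lowest T cell group and the highest B cell group by mean. The share of all genes with such gaps between T and B cell groups was not computed.

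GC B cells were compared with non-GC B cells in one model of the 21 B cell samples, averaged over genotypes. All 10 genes had a negative log2 fold change, and 9 of them fell in GC B cells by edgeR's quasi-likelihood test at a Benjamini-Hochberg adjusted p under 0.05; of all 14490 genes tested, 36.3% were called lower and 74.9% in either direction. The 8 that fell by more than 1.5-fold, against 24.6% of all genes, were Nfkbiz, Nfkbia, Rel, Nfkb2, Relb, Tnfaip3, Nfkbie and Rela. The median log2 fold change of the 10 genes was -0.81, against 0.02 over all genes. In bulk samples, fewer cells of a type and less RNA per cell cannot be told apart.

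Of the subunits, Rel, whose product c-Rel is the canonical subunit found mainly in lymphocytes and other blood cells, had 117, 119, 121, 150.0 and 181 CPM in the WT non-GC B samples and 98.7, 114, 115 and 116 CPM in the S1PR4-/- ones. The GC B samples ran from 50.7 to 68.2 CPM in WT (median 59.8) and from 51.3 to 67.0 CPM in S1PR4-/- (median 62.4). Every GC B sample was below every non-GC B sample, and the log2 fold change was -1.04 (SE 0.08, 2.05-fold lower, edgeR adjusted p = 2.70e-10). Nfkb2, the precursor of the DNA-binding partner of Relb, had 253, 258, 267, 279.7 and 288 CPM in WT and 176, 228, 258 and 259.9 CPM in S1PR4-/- non-GC B cells, against 105 to 176 CPM in GC B cells of both genotypes. The groups did not overlap, although the lowest S1PR4-/- non-GC B sample nearly met the highest WT GC B sample, and Nfkb2 fell by 0.91 on the log2 scale (SE 0.09, edgeR adjusted p = 9.29e-09). Relb fell to a like extent (log2 fold change -0.86, SE 0.09, edgeR adjusted p = 1.57e-08). Its samples overlapped, since 1 WT GC B sample reached 88.7 CPM and 1 S1PR4-/- non-GC B sample stood at 84.0 CPM.

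Rela fell less (log2 fold change -0.64, SE 0.04), from 248 to 298 CPM in non-GC B cells to 154 to 194 CPM in GC B cells, again with no overlap. Nfkb1, the precursor of the subunit that pairs with Rela and Rel, was the exception: it had 129 to 157 CPM in non-GC B cells and 116 to 167 CPM in GC B cells. Its samples overlapped almost wholly, and its log2 fold change was -0.02 with a 95% interval from -0.17 to 0.12 (edgeR adjusted p = 0.776).

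Among the inhibitors, Nfkbiz, an atypical nuclear IkB protein that acts as a cofactor at a subset of NF-kB targets, showed the most negative value of the list. It had 24.3, 24.5, 24.9, 30.0 and 35.4 CPM in WT and 20.8, 23.1, 25.04 and 26.1 CPM in S1PR4-/- non-GC B cells, and 8.90 to 12.2 CPM in the 12 GC B samples. The groups were far apart, and the log2 fold change was -1.24 (SE 0.08, 2.36-fold lower, edgeR adjusted p = 2.18e-11). Nfkbia had 327, 362, 374, 385 and 412 CPM in WT and 304, 343, 350.1 and 397 CPM in S1PR4-/- non-GC B cells. Its GC B samples ran from 139 to 228 CPM in WT (median 173) and from 124 to 200.5 CPM in S1PR4-/- (median 159), again without overlap, and it fell by 1.10 on the log2 scale (SE 0.09, edgeR adjusted p = 3.84e-10).

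Tnfaip3, the ubiquitin-editing enzyme that shuts off signaling upstream of the IkB kinases, fell by 0.77 on the log2 scale (SE 0.08), from 66.7 to 96.6 CPM in non-GC B cells to 37.7 to 53.7 CPM in GC B cells. Nfkbie, a further cytoplasmic IkB protein, fell by 0.69 (SE 0.09), with overlap between the highest WT GC B sample (148 CPM) and the lower S1PR4-/- non-GC B samples (137 and 142 CPM). Tnip1, the adaptor that binds the Tnfaip3 enzyme, fell by 0.25 (SE 0.06, edgeR adjusted p = 0.000338), from 66.7 to 73.8 CPM to 46.6 to 64.8 CPM with no overlap, the smallest change of the 9. In all, 7 of the 10 genes were lower in GC B cells with no overlap between the populations (Rel, Rela, Nfkb2, Nfkbia, Nfkbiz, Tnfaip3 and Tnip1), against 15.3% of all genes. The calls were the same in WT samples alone and in S1PR4-/- samples alone, with 9 of 10 genes called in each.

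**Figure D2:**
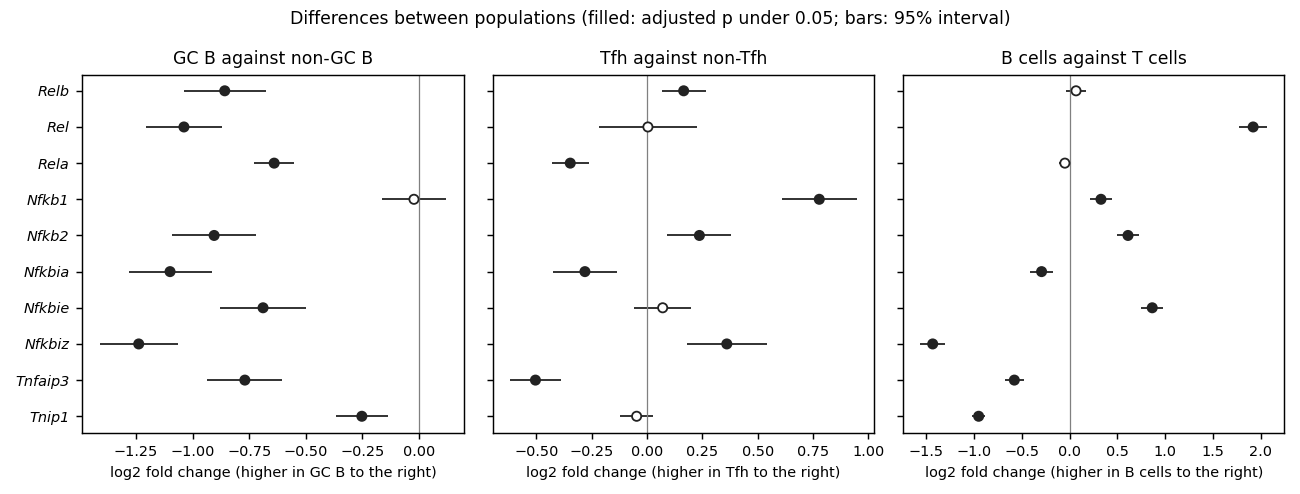
log2 fold change (points) with its 95% interval (bars) for each of the 10 genes in GC B against non-GC B cells (left, 21 samples), TFH against non-TFH cells (middle, 24 samples) and B against T cells (right, 45 samples), where filled points have an edgeR adjusted p under 0.05 and each panel has its own axis. All points except that of Nfkb1 lie clearly left of 0 in GC B cells, while the TFH panel and the lineage panel have filled points on both sides.

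The rest of the pathway was taken from lists of its known parts. These lists share genes: Traf1 and Birc3 count as adaptors and as targets, and Bcl3 as an IkB-related gene and a target. Il2ra counts as a target and as a regulatory T cell marker. The counts below are of genes called by edgeR and stand beside 36.3% of all genes called lower and 74.9% in either direction. Of 11 kinases and their activators, 7 fell and 1 rose; the former included Map3k14, the kinase that starts the alternative route (log2 fold change -1.09, SE 0.08, edgeR adjusted p = 3.52e-11), and Ikbkb, the catalytic IkB kinase of the canonical route (-1.08, SE 0.05, edgeR adjusted p = 9.35e-14). Of 15 adaptors, 12 fell, among them Malt1, the protease that links the antigen receptor to the IkB kinases (-1.19, SE 0.07), and Birc3 (-1.23, SE 0.08), and 2 rose, among them Traf1 (1.21, SE 0.11). The other IkB-related genes Bcl3 (-1.40, SE 0.15) and Nfkbid (-1.33, SE 0.12) fell, and of 10 further inhibitors 6 fell and none rose, while edgeR gave 6 of those 10 an unadjusted p under 0.05. Of 14 receptors 6 fell, and none rose by edgeR, with 6 of the 14 at an unadjusted p under 0.05. The 20 known target genes were divided, with 10 higher and 6 lower; Gadd45b (1.99, SE 0.10) and the survival gene Bcl2l1 (1.78, SE 0.11) rose, whereas Irf1 (-1.49, SE 0.15) fell.

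Other genes moved with the same contrast. The 12 immediate early genes, which cell handling can also raise, summed to 316 to 505 CPM in GC B cells and 619 to 896 CPM in non-GC B cells. Of these, 7 of 12 were called lower and 3 higher, where 36.3% of all genes were called lower and 74.9% in either direction. The 6 plasma cell markers summed to 2043 to 18211 CPM in GC B cells against 424 to 756 CPM in non-GC B cells, with none at 0 in a whole group, and their part in the members' values was not tested. The 12 T cell markers summed to 122 to 213 CPM against 68.1 to 129 CPM. With a score of these T cell markers as a covariate, 9 of the 10 members were called, and Nfkbiz stood at -1.21 and Nfkbia at -1.06.

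TFH cells were compared with non-TFH cells in one model of the 24 T cell samples, averaged over genotypes. The choice of the list did not use this contrast, but it used the same samples. The tests of Relb and Nfkbiz therefore rest on a spread between samples that the choice had also used. In contrast to the B cells, the members moved in both directions and by little. Of the 10 genes, 4 rose in TFH cells and 3 fell by edgeR at an adjusted p under 0.05, where 78.2% of the 14401 genes tested were called, 39.4% higher and 38.8% lower. Only Nfkb1 passed 1.5-fold, against 46.4% of all genes, and the median log2 fold change of the 10 was 0.04, beside -0.00 over all genes.

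Nfkb1 ran from 115 to 158 CPM in WT (median 127) and from 127 to 213 CPM in S1PR4-/- TFH cells (median 152). In non-TFH cells it ran from 67.0 to 82.8 CPM in WT (median 75.6) and from 79.6 to 114 CPM in S1PR4-/- (median 87.7). Every TFH sample was above every non-TFH sample, as for 19.1% of all genes, and Nfkb1 was 1.71-fold higher (log2 fold change 0.78, SE 0.08, edgeR adjusted p = 4.79e-09). The other 3 that rose were Nfkbiz (0.36, SE 0.09, edgeR adjusted p = 0.000640), Nfkb2 (0.24, SE 0.07) and Relb (0.17, SE 0.05), and each overlapped between the populations. These 3 averages joined unlike differences: in WT samples alone the log2 fold changes were 0.86 for Nfkbiz, 0.56 for Nfkb2 and 0.47 for Relb, and in S1PR4-/- samples alone they were -0.13, -0.075 and -0.13.

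The 3 that fell in TFH cells were Tnfaip3 (log2 fold change -0.50, SE 0.06, edgeR adjusted p = 1.09e-08), Rela (-0.35, SE 0.04) and Nfkbia (-0.28, SE 0.07). Tnfaip3 had 58.9 to 99.3 CPM in TFH cells and 90.4 to 115 CPM in non-TFH cells, so that the highest TFH samples overlapped the lowest non-TFH samples. For Nfkbia the log2 fold change was -0.53 in S1PR4-/- samples alone and -0.02 in WT samples alone. Rel (0.00, 95% interval -0.22 to 0.22), Nfkbie (0.07, -0.06 to 0.20) and Tnip1 (-0.05, -0.12 to 0.03) did not pass the test. The average of Tnip1 joined unlike differences as well, a log2 fold change of 0.12 in WT samples alone and of -0.21 in S1PR4-/- samples alone. Each of these is a part of the contrast behind the list and is given with no test. The average of Tnip1 was called by edgeR with total counts as the scaling (-0.11). Nfkbie had 0.22 and -0.068 and Rel 0.17 and -0.15 in WT and in S1PR4-/- samples alone.

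B cell markers differed between these populations: the 12 genes summed to 149 to 493 CPM in TFH cells and to 11.1 to 52.7 CPM in non-TFH cells, and none was at 0 throughout a group. With a score of these markers as a covariate, Relb (0.12, edgeR adjusted p = 0.0989) and Nfkbia (-0.18, edgeR adjusted p = 0.0920) were no longer called, and the other 5 calls stayed. The counts for the other lists stand beside 39.4% of all genes called higher and 38.8% lower. Of these lists, 8 of 11 kinases and activators fell in TFH cells and 2 rose. Map3k14 was 2.94-fold lower (log2 fold change -1.56, SE 0.06) and Ikbkb 2.19-fold lower (-1.13, SE 0.04). Of 13 receptors tested, 8 rose and 3 fell; Il1r1, the interleukin receptor that signals through Myd88, had a log2 fold change of 5.77 (SE 0.34, edgeR adjusted p = 6.50e-14), and Cd40, which B cells express, rose together with the B cell markers (3.49, SE 0.42). The target genes were split into 9 higher, such as Bcl2a1b (2.49, SE 0.10), and 8 lower, such as Ltb (-1.66, SE 0.07). The 15 adaptors had 6 higher and 5 lower, the 10 other inhibitors 3 and 3 (Tnip3, a relative of Tnip1, was 5.39-fold higher), and Bcl3, Nfkbid and Nfkbib 1 and 1.

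Across all 45 samples, B cells were compared with T cells as the mean of 4 groups against 4; the lineage and the day of sorting cannot be told apart here. Of the 10 genes, 4 were higher in B cells and 4 lower by edgeR, where 32.6% of 16200 genes were called higher and 40.8% lower. The largest difference was that of Rel (log2 fold change 1.92, SE 0.07, 3.79-fold, edgeR adjusted p = 5.79e-26), with 13.3 to 29.2 CPM over the 24 T cell samples and 50.7 to 181 CPM over the 21 B cell samples. These ranges did not overlap, and the share of all genes separated in this way was not computed. Nfkbie (0.87, SE 0.06), Nfkb2 (0.61, SE 0.06) and Nfkb1 (0.33, SE 0.06) were also higher in B cells. Nfkbiz (-1.43, SE 0.06, 2.70-fold lower), Tnip1 (-0.95, SE 0.03), Tnfaip3 (-0.58, SE 0.05) and Nfkbia (-0.29, SE 0.06) were lower in B cells, so that 4 of the 5 inhibitors were on that side. Relb (0.07, 95% interval -0.03 to 0.17) and Rela (-0.05, -0.11 to 0.01) did not pass the test. Relb passed it without the WT TFH sample numbered 1 (0.14, edgeR adjusted p = 0.00912), with DESeq2 (0.12, DESeq2 adjusted p = 0.0248) and with the size factors of DESeq2 in edgeR (0.12, edgeR adjusted p = 0.0261). Rela passed it with total counts as the scaling (-0.12, edgeR adjusted p = 0.00106). When each sample was left out in turn, all 10 genes had their highest value without the WT TFH sample numbered 1. Rela then stood at 0.04 and was not called.

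The genotypes were compared first in B cells, which played no part in the choice of the list. In GC B cells none of the 10 genes was called by edgeR, DESeq2 or limma-voom and none had an unadjusted edgeR p under 0.05; of all 14490 genes, 0.0483% were called. The log2 fold changes of S1PR4-/- over WT ran from -0.14 (Nfkbie, 95% interval -0.40 to 0.11, and Nfkbia, -0.38 to 0.10) to 0.08 (Nfkb1, -0.11 to 0.26), 6 of them negative, with a median of -0.02 beside 0.01 over all genes. Relb had -0.11 (95% interval -0.35 to 0.13) and Nfkbiz -0.03 (-0.25 to 0.20). The narrowest interval was that of Rela, from -0.11 to 0.13. All 10 genes overlapped between the genotypes, where 0.0621% of all genes were higher and 0.131% lower without overlap.

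In non-GC B cells none of the 10 was called either, by edgeR, DESeq2 or limma-voom, where edgeR called 0.0897% of all genes, and 1 had an unadjusted p under 0.05. That gene was Rel, with a log2 fold change of -0.31 (SE 0.12, 95% interval -0.57 to -0.05, edgeR adjusted p = 0.658). As given above, its 4 S1PR4-/- samples lay below all 5 WT samples, and the same held for Nfkbie, with 137, 142, 165 and 165 CPM in S1PR4-/- against 170.2, 170.4, 176, 189.5 and 191 CPM in WT. Such a separation with S1PR4-/- lower was seen in 0.87% of all genes. The log2 fold change of Nfkbie was -0.23 (SE 0.14, 95% interval -0.53 to 0.06). In total 9 of the 10 values were negative, Rela (0.02) being the exception, with a median of -0.16 beside -0.01 over all genes. Of the 12 immediate early genes, 11 also had a negative value in this comparison (median -0.17), summing to 743 to 896 CPM in WT and 619 to 823 CPM in S1PR4-/- samples, and their part in the members' values was not tested.

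The interaction term asked whether the difference between genotypes was unlike in GC B cells and in non-GC B cells, the same kind of measure as the one that drew attention to Relb and Nfkbiz in T cells. None of the 10 genes was called by edgeR, DESeq2 or limma-voom, as was 0% of all genes by edgeR, and 1 gene, Rel, had an unadjusted p under 0.05 (0.36, SE 0.16, edgeR adjusted p = 1.00). Among all 14490 genes, edgeR gave 664 an unadjusted p under 0.05, and DESeq2 called 6. Relb had 0.11 (95% interval -0.26 to 0.47) and Nfkbiz 0.20 (-0.15 to 0.55), and 8 of the 10 values were positive.

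**Figure D3:**
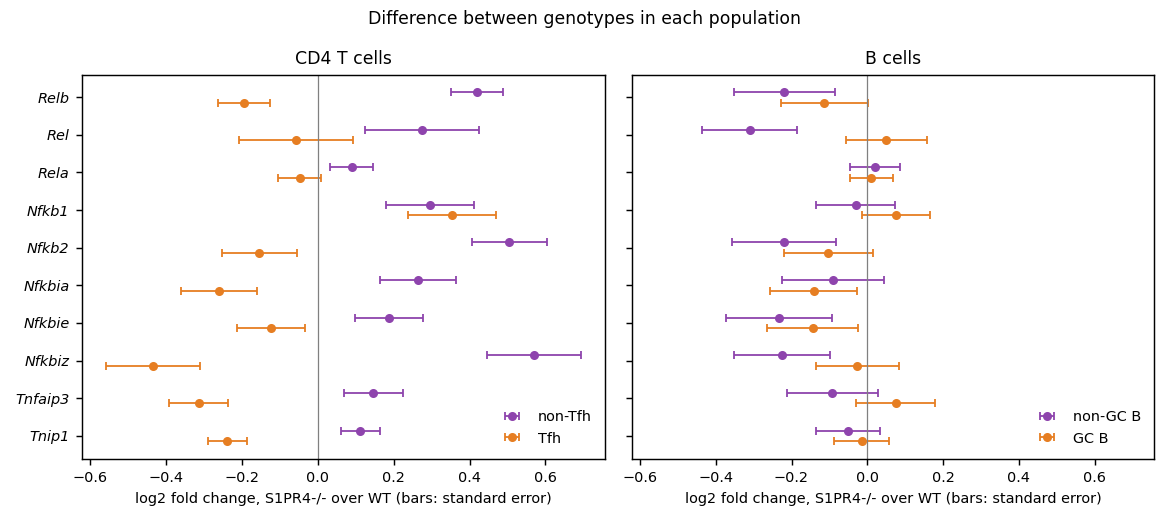
log2 fold change of S1PR4-/- over WT (points) with its standard error (bars) for each of the 10 genes, in CD4 T cells (left, TFH in orange and non-TFH in purple) and in B cells (right, GC B in orange and non-GC B in purple), on a common axis. In T cells the non-TFH points lie right of 0 for all 10 genes and the TFH points left of 0 for all but Nfkb1. Relb and Nfkbiz had been noticed for the difference between these populations before their family was added to them, so the T cell panel is a description. In B cells the points lie within 0.31 of 0.

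In T cells, the contrast that led to the list is described with no test. All 10 genes were on the higher side in S1PR4-/- non-TFH cells, with a median log2 fold change of 0.27 beside 0.01 over all genes, and 9 of 10 on the lower side in S1PR4-/- TFH cells, with a median of -0.18 beside -0.00. The difference between these (TFH minus non-TFH) was negative for 9 of 10, with a median of -0.41 beside -0.01; edgeR called 0.0139% of the 14401 genes (2 genes) in that contrast, and 41 genes with a replicate block by genotype and number. Every value for the genotypes in T cells comes from the contrast behind the list, so that nothing is read from its direction.

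Relb ran from 59.3 to 77.0 CPM in WT non-TFH cells (median 66.0) and from 80.4 to 98.8 CPM in S1PR4-/- non-TFH cells (median 89.7). In TFH cells it ran from 87.9 to 114 CPM in WT (median 94.3) and from 73.3 to 91.2 CPM in S1PR4-/- (median 83.2). The S1PR4-/- samples of both populations lay between the WT means of 67.3 and 96.8 CPM in 11 of 12 cases. The log2 fold changes of S1PR4-/- over WT were 0.42 (SE 0.07) in non-TFH and -0.20 (SE 0.07) in TFH cells, a difference of -0.62 (SE 0.10).

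Nfkbiz ran from 24.2 to 37.5 CPM in WT non-TFH cells (median 33.1) and from 44.4 to 50.9 CPM in S1PR4-/- non-TFH cells (median 47.7). In TFH cells it ran from 41.6 to 74.8 CPM in WT (median 64.0) and from 38.7 to 50.9 CPM in S1PR4-/- (median 42.7). The WT TFH samples were the most spread of the 4 groups, with an SD of 14.2 CPM, and the 2 lowest of them lay within the range of the S1PR4-/- samples. The log2 fold changes were 0.57 (SE 0.12) in non-TFH and -0.44 (SE 0.12) in TFH cells, a difference of -1.01 (SE 0.18).

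Nfkb2 had the next most negative difference (-0.66, SE 0.14), from 0.50 (SE 0.10) in non-TFH cells and -0.16 (SE 0.10) in TFH cells. Its medians were 90.7 CPM in WT and 128 CPM in S1PR4-/- non-TFH cells, and 139.9 and 124 CPM in TFH cells. Nfkbia followed (-0.53, SE 0.14), with 0.26 (SE 0.10) and -0.26 (SE 0.10), then Tnfaip3 (-0.46, SE 0.11), with 0.15 (SE 0.08) and -0.31 (SE 0.08), and Tnip1 (-0.35, SE 0.07), with 0.11 (SE 0.05) and -0.24 (SE 0.05). The differences were smaller for Rel (-0.33, SE 0.21), Nfkbie (-0.31, SE 0.13) and Rela (-0.14, SE 0.08). Nfkb1 stood apart, with 0.30 (SE 0.12) in non-TFH and 0.35 (SE 0.12) in TFH cells, a difference of 0.06 (SE 0.16).

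The samples of the genotypes did not overlap for Relb and Nfkbiz in non-TFH cells, with S1PR4-/- higher, as for 0.306% of all genes. In TFH cells the same was seen for Tnip1 alone, with 126 to 143 CPM in WT and 105 to 118 CPM in S1PR4-/- samples, as for 1.19% of all genes with S1PR4-/- lower. For the other lists the same contrasts gave the following, where 7473 of all 14401 genes were positive in non-TFH cells and 7314 negative in TFH cells. Of the 20 known target genes, 17 were positive in S1PR4-/- non-TFH cells (median 0.43) and 12 negative in TFH cells (median -0.08). Bcl3, Nfkbid and Nfkbib had a median of 0.62 in non-TFH and -0.14 in TFH cells. The kinases and activators had medians near 0, 0.02 in non-TFH and -0.06 in TFH cells, as had the adaptors, 0.03 and -0.04. Of 13 receptors tested, 8 were positive in non-TFH cells (median 0.10) and 12 negative in TFH cells (median -0.15), and the difference between these was negative for 11 (median -0.56). In B against T cells, edgeR called 5 of the 14 receptors higher, Cd40 and Tlr4 among them, and 8 lower. The part of B cell transcripts in the receptor values was not tested. Of the 10 other inhibitors, 7 were positive in non-TFH cells (median 0.08) and 7 negative in TFH cells (median -0.09), and the difference was negative for 6 (median -0.09).

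Markers of other cells moved with genotype in these T cells. Of the 12 B cell markers, 12 were negative in S1PR4-/- non-TFH cells (median log2 fold change -2.32). They summed to 13.7 to 52.7 CPM in WT and 11.1 to 22.6 CPM in S1PR4-/- samples. In S1PR4-/- TFH cells 11 of the 12 were negative (median -2.19). There the 12 summed to 152 to 493 CPM in WT and 149 to 290 CPM in S1PR4-/- samples. None was at 0 throughout a group, and 9 of the 12 had means under 1 CPM in S1PR4-/- non-TFH cells. With their score as a covariate the difference between TFH and non-TFH cells was -0.60 for Relb and -0.97 for Nfkbiz. The 12 immediate early genes summed to 700.4 to 1096 CPM in WT and 879 to 1344 CPM in S1PR4-/- non-TFH cells, with 9 of 12 positive (median 0.26), and to 939 to 1180 and 794 to 1141 CPM in TFH cells, with 7 of 12 positive (median 0.03). The 4 regulatory T cell markers were all positive in S1PR4-/- non-TFH cells (median 0.34), with a sum of 165 to 364 CPM in WT and 276 to 521 CPM in S1PR4-/- samples; in TFH cells 3 of 4 were. Of the 6 plasma cell markers, 5 could be tested, and 4 were negative in S1PR4-/- TFH cells (median -1.35), where the 6 summed to 242 to 601 CPM in WT and 201 to 238 CPM in S1PR4-/- samples without overlap. In non-TFH cells 3 of 5 were negative (median -0.077), with a sum of 105 to 158 CPM in WT and 119 to 198 CPM in S1PR4-/- samples, and none was at 0 throughout a group. The 7 myeloid markers summed to 18.4 to 79.4 CPM in WT and 13.7 to 412 CPM in S1PR4-/- TFH cells, with 1 at 0 throughout each of these groups, and to 11.5 to 40.7 and 9.84 to 33.0 CPM in non-TFH cells; of the 4 tested, 2 were negative in TFH and 3 in non-TFH cells. The part of the immediate early genes and of regulatory T, plasma and myeloid cells in the members' values was not tested.

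How the members vary together from sample to sample was described after the mean of each of the 8 groups had been taken out, over 45 samples that share library depth, scaling and sorting with each other; the correlations are descriptions with no test. The median Pearson's r over the 45 pairs of members was 0.21, beside 0.02 for members with the other 8888 genes of at least 10 CPM. The highest r was 0.73, for Nfkb2 with Nfkbie (0.67 in T cells and 0.78 in B cells), and the next was 0.71, for Relb with Nfkbie (0.80 and 0.67). For Nfkbia with Nfkbie r was 0.62 (0.51 and 0.71) and for Relb with Nfkb2 0.61 (0.65 and 0.60). Tnip1 went with Nfkbie (0.65) and Rela (0.63), each at 0.61 or more in both lineages. Nfkbiz had an r of 0.02 with Relb and -0.12 with Nfkb2. Its r with Tnfaip3 (0.39 over all samples) was 0.76 in T cells and 0.02 in B cells, and its r with Rel (0.40) was 0.61 in T cells and -0.05 in B cells. Nfkb1 had an r of -0.32 with Nfkbia and 0.39 with Rela. The genes outside the list most like Relb were Zkscan6 (0.72), Castor1 (0.68), Ccdc166 (0.65), Acot2 (0.65) and B4galnt1 (0.65), and those most like Nfkbiz were Usp32 (0.72), Pikfyve (0.65), Med13 (0.64), Zfp280d (0.64) and Crebrf (0.64).

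**Figure D4:**
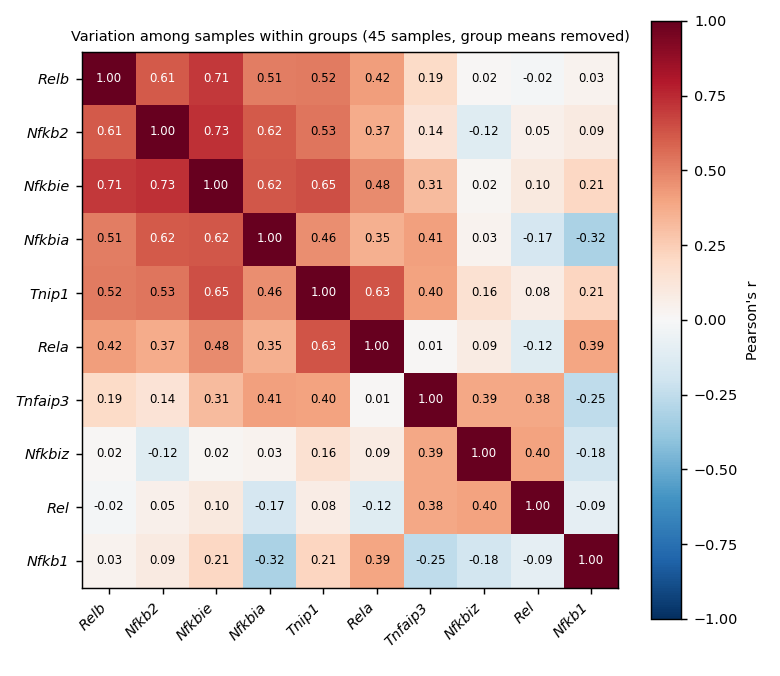
Pearson's r between the log2 CPM of each pair of the 10 genes over 45 samples after the mean of each group was taken out, from -1 (blue) to 1 (red). Relb, Nfkb2, Nfkbie, Nfkbia and Tnip1 form a block with values from 0.46 to 0.73, whereas Nfkbiz and Rel have values from -0.17 to 0.16 with these genes, and Nfkb1 has its highest value, 0.39, with Rela.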

How the data were processed

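RNA-sequencing libraries (oligo-dT capture, Illumina Stranded Total RNA Prep) of 45 sorted samples were processed by the authors with Cutadapt 2.10, STAR 2.5.3 (mm10), Picard and RSEM 1.3.0, and the authors deposited expected counts for every gene, without scaling by library size or transcript length, of which 8.83% were not whole. RSEM shares reads between near-identical copies by estimation. The methods name GENCODE M30, but the symbols are those of M21, from which coordinates were taken. Counts were rounded, filtered (filterByExpr), scaled by TMM and tested with edgeR 4.0.16 (quasi-likelihood, R 4.3.3) over all genes, with Benjamini-Hochberg adjustment; standard errors came from the F statistic. T cells (24 samples) and B cells (21 samples) were fitted apart, and all 45 samples for the lineages. DESeq2 1.42.0 and limma 3.58.1 (voom) were alternatives, beside other scalings, filters, blocks, covariates and leaving out each sample. The fits were tested on simulated data. The members, lists and rules were chosen with earlier results of these data known. All 10 members are named; from each other list at most 3 genes per comparison and direction, by size among those with at least 1 CPM, adjusted p under 0.05 and over 1.5-fold. The genes most like Relb and Nfkbiz are the 5 with the highest r. Totals of 26299429 to 45548215 counts leave the spread between samples, not counting error, as the main limit for these genes.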

Additional observations from a re-analysis of the deposited data

Results flagged for a closer look

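Of the 80 sets formed by 10 genes and 8 groups, 7 had a sample whose gap to its neighbour was large for the range of the group by Dixon's test, and chance alone gives about 1 in 20. In non-TFH cells of S1PR4-/- mice the sample numbered 1 was highest for Nfkbia (423 CPM, next 353) and for Nfkbie (82.3 CPM, next 73.3), and in WT non-TFH cells the sample numbered 2 was lowest for Tnip1 (103 CPM, next 117). In WT TFH cells the sample numbered 3 was highest for Relb (114 CPM, next 97.7). In WT GC B cells the sample numbered 4 was highest for Nfkb1 (153 CPM, next 134). In non-GC B cells the WT sample numbered 2 was highest for Tnfaip3 (96.6 CPM, next 79.7), and the S1PR4-/- sample numbered 3 was lowest for Rel (98.7 CPM, next 114).

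The difference between genotypes was unlike in TFH and non-TFH cells for Relb (-0.62 on the log2 scale) and for Nfkbiz (-1.01). These genes had been noticed for that difference, and the rest of the list was built around them, so the values are a description.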

How the results depend on the processing

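Over all alternatives, no member was called between genotypes in GC B or non-GC B cells or in their interaction, and the 9 calls in GC B against non-GC B cells became 8 under a 1.5-fold rule. Averaged over genotypes, the TFH values of Relb, Nfkb2 and Nfkbiz turned to -0.13, -0.075 and -0.13 in S1PR4-/- samples alone. With the 1.5-fold rule, 1 member and 6675 genes were called in TFH against non-TFH cells, and 5 members and 6929 genes in B against T cells. Counts of all genes moved more. For the genotypes in GC B cells (7 genes), DESeq2 called 21 and one fit of all samples 11; in non-GC B cells (13 genes), these called 54 and 30, and a fit of only the 2 groups 7; for the interaction in B cells (0 genes), 6 and 5. For the interaction in T cells (2 genes), DESeq2 called 76, limma-voom 1, total counts 1, Xist as a covariate 14 and the B cell marker score 0. Leaving out each sample gave 0 to 6 genes there, the count of 2 standing only without WT TFH samples 1 or 4, S1PR4-/- TFH samples 1 or 3, or WT non-TFH samples 2 or 3, and 0 to 1 in the B cell interaction (1 without the S1PR4-/- non-GC B sample 1). The cause was not tested.

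Same-numbered T cell samples had deviations with r between 0.0534 and 0.248 over 12 pairs. Of these, 9 were best with their own number, where each had 6 candidates. For B cell samples r ran from -0.0546 to 0.121 over 9 pairs, 4 of them best. In S1PR4-/- T cells alone all 6 pairs were over 0.1 (0.106 to 0.187) and best with their own number, but in WT T cells 4 of 6 pairs were under 0.1. The 4 best pairs of B cell samples were all WT. The labels do not say whether equal numbers mean one mouse, and these values do not exclude it. The main fits hold no pairs, and fits with a block are given beside them. A replicate block by number called 10 genes in the T cell interaction and 8 in non-GC B cells, and a block by genotype and number called 41 in the T cell interaction. With the block, 7 members stayed called in TFH against non-TFH cells and 9 in GC B against non-GC B cells.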
